A study of Mus musculus with 4 samples.

Results

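Rab GTPases are small proteins that switch between a GTP-bound and a GDP-bound form and, when GTP-bound, recruit the tethers, motors and other effectors that move a vesicle to its target membrane. Family members mark particular membranes, and several can share one. Rab5 marks the early endosome, Rab7 the late endosome and lysosome, and Rab11 the recycling endosome. Rab1 and Rab2 mark the route between endoplasmic reticulum (ER) and Golgi, and Rab8 and Rab27 carriers bound for the cell surface. Exchange factors load them with GTP, TBC-domain proteins stimulate GTP hydrolysis, and GDP dissociation inhibitors (GDI) lift them off membranes. In the mouse embryo the visceral endoderm takes up maternal proteins by endocytosis, and Rab7 is needed there for delivery to its large apical vacuoles.

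Transcripts of this family were compared between SOCS3 null and wildtype mouse embryonic stem (ES) cells, with total RNA from each genotype on 2 arrays. SOCS3 restrains JAK kinases downstream of cytokine receptors, and the comparison asks what the loss of SOCS3 does to gene expression in ES cells. The labels give neither the allele nor the clone, culture medium or passage, and do not say whether each array had its own culture. The p-values therefore cover array-to-array spread only, and that spread may be technical. The members were all genes with a symbol of Rab, digits and at most 1 letter, taken from probe sets annotated to a single gene. They numbered 59 of 18193 genes on the array, each read from the probe set with its highest mean over the 4 arrays. A filter on dim probe sets left 52 of the 59 for testing, among 12732 genes in all. Rab3c, Rab9b, Rab19, Rab26, Rab36, Rab40b and Rab44 lay below the filter, with intensities of 5.79 to 11.6 on their brightest probe sets, and were not tested. Of those tested, Rab37 and Rab39b passed the filter through 1 genotype only.

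On its brightest probe set the targeted transcript Socs3 had intensities of 19.3 and 12.9 on the SOCS3 null arrays, against 3024 and 1884 on the wildtype arrays. ES cell markers were bright in both genotypes. Their summed intensities over 8 markers were 38785 and 35703 on the SOCS3 null arrays and 50830 and 50051 on the wildtype arrays. All 8 were lower in SOCS3 null cells, with log2 changes of -1.70 to -0.01 and a median of -0.39. In limma 3 had an unadjusted p under 0.05, and 1 of the 8, Sox2, fell after adjustment. Markers of primitive endoderm moved with genotype: all 13 on the array were higher in SOCS3 null cells, and their summed intensities were 42065 and 41959 on the SOCS3 null arrays, against 978 and 1009 on the wildtype arrays. Of 7 blood and endothelium markers tested 3 rose and 0 fell, with sums over the 9 on the array of 673 and 641 on the SOCS3 null arrays, against 404 and 419 on the wildtype arrays. Both mesoderm markers tested rose, with sums over the 5 on the array of 227 and 227 on the SOCS3 null arrays, against 77.8 and 64.5 on the wildtype arrays. Of 4 trophoblast markers tested 1 rose and 1 fell. Every Rab change below was measured beside these shifts, and their part in it was not tested. In these bulk samples fewer cells of a type and less RNA per cell cannot be told apart. Of 9 fibroblast or feeder markers tested 0 passed in limma and 1 had an unadjusted p under 0.05. Their sums, over the 10 on the array, were 3987 and 2465 on the SOCS3 null arrays and 2168 and 3722 on the wildtype arrays, which overlap.

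Intensities are on the authors' linear scale and were tested with limma as log2(intensity + 16). A change is the difference of means on that scale, SOCS3 null less wildtype, with its standard error (SE), and a gene passed at a Benjamini-Hochberg adjusted p under 0.05 over all 12732 genes. Of the 52 Rab genes tested, 12 rose and 3 fell in SOCS3 null cells, or 23.1% and 5.77%. Over all genes tested 13.1% rose and 9.55% fell, 22.7% in all. Those that rose were Rab5c, Rab7, Rab8a, Rab8b, Rab10, Rab11a, Rab12, Rab13, Rab20, Rab24, Rab27a and Rab31, and those that fell were Rab25, Rab34 and Rab39b. Counted without a test, both SOCS3 null arrays lay above both wildtype arrays for 28 members and below them for 9, where the background was 32.3% and 33.6% of all genes tested; the members' shares were 53.8% and 17.3%. The median change over the 52 was 0.32, against -0.01 over all genes tested.

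**Figure D1:**
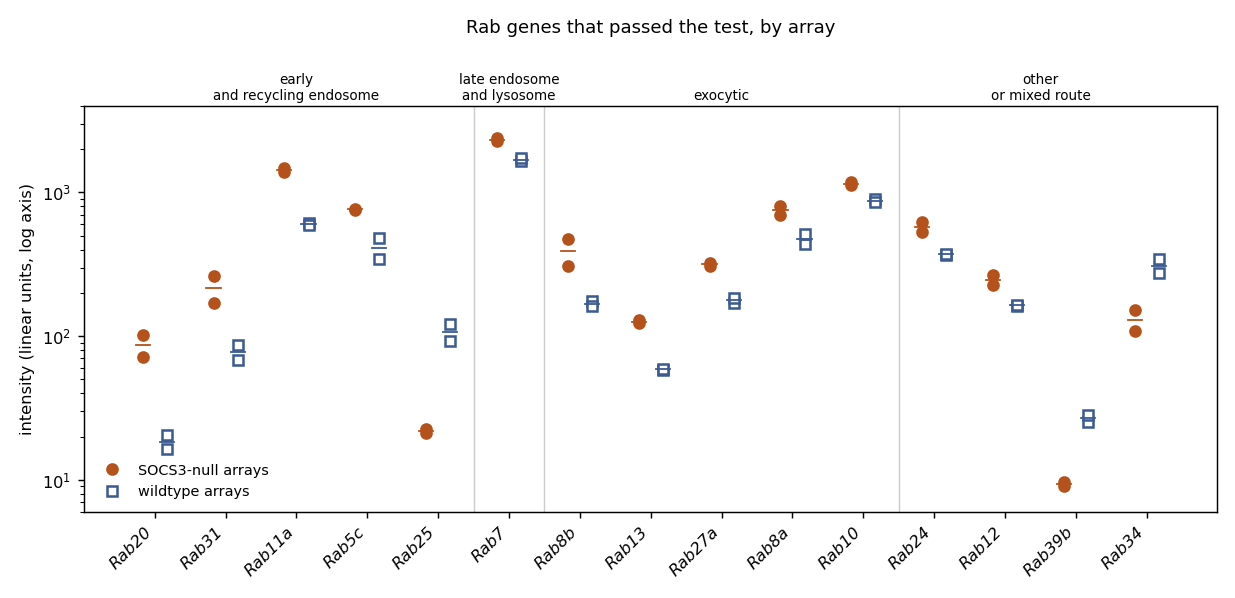
Intensity (linear units on a log axis) of the 15 Rab genes that passed the test on each of the 2 SOCS3 null arrays (filled circles, left) and the 2 wildtype arrays (open squares, right), with a bar at each mean, grouped by route. The groups do not overlap for any of the 15; 12 lie higher in SOCS3 null cells and Rab25, Rab39b and Rab34 lie lower.

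Among the 16 Rab genes of early and recycling endosomes, 4 rose and 1 fell, where 13.1% and 9.55% of all genes tested did. Rab20, a Rab of phagosomes and early endosomes, had intensities of 101 and 71.9 on the SOCS3 null arrays, against 16.3 and 20.6 on the wildtype arrays. The wildtype values lie near the median of all probe sets on those arrays, so Rab20 was dim there and clearly above that level without SOCS3. Its change was 1.56 (SE 0.18, adjusted p = 0.0141), the largest increase in the family at this pseudocount. With a pseudocount of 64 it was 0.86, below Rab11a (1.17), Rab31 (0.96) and Rab8b (0.94), since the size of a change from a dim level depends on that choice. Rab31, which works between the trans-Golgi network and endosomes, had 261 and 170 on the SOCS3 null arrays and 68.6 and 87.2 on the wildtype arrays, a change of 1.28 (SE 0.24, adjusted p = 0.0365). The groups are apart, but the SOCS3 null arrays differ from each other by more than the wildtype arrays do. A dimmer Rab31 probe set had 63.7 and 46.6 on the SOCS3 null arrays and 42.9 and 63.0 on the wildtype arrays, which overlap, and as the mean of both probe sets Rab31 no longer passed (change 0.67, adjusted p = 0.108).

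The Rab11 group of recycling GTPases split. Rab11a, the general Rab of the recycling endosome, had 1393 and 1481 on the SOCS3 null arrays, against 611 and 591 on the wildtype arrays, a change of 1.24 (SE 0.08, adjusted p = 0.00718). The spread within each genotype was small beside the difference, and its second probe set showed nearly the same change (1.12, adjusted p = 0.0145 over all probe sets tested). Rab25, the epithelial relative of Rab11a in apical recycling, went the other way, with 22.6 and 21.1 on the SOCS3 null arrays, against 122 and 93.1 on the wildtype arrays. Its change was -1.70 (SE 0.14, adjusted p = 0.00905), the largest decrease in the family, to a level near the median of all probe sets; with a pseudocount of 64 it was -0.99. Rab11b, the close paralogue of Rab11a, had 345 and 325 on the SOCS3 null arrays and 334 and 391 on the wildtype arrays, which overlap (change -0.11, SE 0.11, adjusted p = 0.548). Within each array the log2 ratio of Rab11a to Rab11b was 2.05 ± 0.12 in SOCS3 null cells and 0.71 ± 0.19 in wildtype cells (SD, n = 2 each), a difference of 1.34. The ratio of Rab25 to Rab11a was -5.26 ± 0.10 in SOCS3 null cells and -2.33 ± 0.21 in wildtype cells (SD, n = 2 each), a difference of -2.93. Such ratios between probe sets carry no level of their own, only the change between genotypes. These 2 ratios and those of Rab5c to Rab5a and Rab8b to Rab8a were chosen after the values were seen. In an exact two-sided permutation test each of the 4 had p = 0.333, adjusted p = 0.333, the smallest p that 2 arrays against 2 allow.

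The promoters of Rab11a and Rab25, relatives that changed in opposite directions, and of Rab20, the member with the largest increase at the pseudocount of 16, are shown from RefSeq (GRCm38.p6), from 250 bases before to 50 bases after the transcription start and written 5′ to 3′ on the gene's strand. They lie at chr9:64737707-64738006 (minus strand), chr3:88548230-88548529 (minus strand) and chr8:11478591-11478890 (minus strand) for Rab11a, Rab25 and Rab20. Capitals mark the motifs searched on both strands: GATAA, the core that GATA factors bind; TTCNNNGAA, the spaced palindrome that STAT factors bind; and CACGTG, an E-box that basic helix-loop-helix factors such as TFEB bind.
Rab11a: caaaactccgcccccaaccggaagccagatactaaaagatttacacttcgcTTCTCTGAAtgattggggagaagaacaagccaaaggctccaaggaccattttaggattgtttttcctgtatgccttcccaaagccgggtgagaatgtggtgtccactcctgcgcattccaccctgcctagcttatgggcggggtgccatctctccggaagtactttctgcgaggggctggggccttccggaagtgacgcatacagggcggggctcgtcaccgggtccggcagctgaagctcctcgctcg
Rab25: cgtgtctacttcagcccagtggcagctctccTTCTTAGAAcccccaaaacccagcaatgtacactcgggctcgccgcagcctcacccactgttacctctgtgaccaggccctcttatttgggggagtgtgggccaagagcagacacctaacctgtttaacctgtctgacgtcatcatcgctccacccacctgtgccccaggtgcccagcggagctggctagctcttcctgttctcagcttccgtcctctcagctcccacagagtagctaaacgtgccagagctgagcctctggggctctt
Rab20: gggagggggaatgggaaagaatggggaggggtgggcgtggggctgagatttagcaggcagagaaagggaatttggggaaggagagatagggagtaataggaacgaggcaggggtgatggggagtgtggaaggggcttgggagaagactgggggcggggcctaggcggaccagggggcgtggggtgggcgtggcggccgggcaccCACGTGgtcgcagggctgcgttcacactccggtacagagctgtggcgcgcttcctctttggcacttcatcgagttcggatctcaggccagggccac

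The Rab11a and the Rab25 promoter each hold a single TTCNNNGAA match, with its first base 199 and 219 bases before the start, and no GATAA or CACGTG. The Rab20 promoter holds a single CACGTG 46 bases before the start and neither of the other motifs. Promoters were found for 48 of the 59 members, 60 promoters in all because some genes have several starts. TTCNNNGAA was in 8.33% of the 60, against 8.30% of 32851 promoters of all genes, GATAA in 20.0% against 25.4%, and CACGTG in 10% against 7.15%. The median GC content was 61.2% in the Rab promoters and 52.7% in all promoters, and its part in these shares was not tested. Of the 15 promoters of the 12 Rab genes that rose, 4 held GATAA, 1 held TTCNNNGAA and 3 held CACGTG. Of the 4 promoters of the 3 that fell, 1 held GATAA, 2 held TTCNNNGAA and 0 held CACGTG. A match describes the letters only, and with 1 match in each sequence shown no motifs overlap there.

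The Rab5 paralogues, which govern fusion of early endosomes, also differed. Rab5c had 765 and 760 on the SOCS3 null arrays, against 345 and 479 on the wildtype arrays, a change of 0.88 (SE 0.18, adjusted p = 0.0427). The wildtype arrays differ more from each other than the SOCS3 null arrays, yet both lie below. Rab5a had 1981 and 2044 on the SOCS3 null arrays and 2075 and 2079 on the wildtype arrays, a change of -0.05 (SE 0.08, adjusted p = 0.721). Rab5b had 31.3 and 42.2 on the SOCS3 null arrays and 37.0 and 31.2 on the wildtype arrays, which overlap, with a change of 0.07 (SE 0.14). The log2 ratio of Rab5c to Rab5a was -1.38 ± 0.04 in SOCS3 null cells and -2.31 ± 0.32 in wildtype cells (SD, n = 2 each), a difference of 0.93. The other 9 members of this class that did not pass changed by -0.33 to 0.71. Rab14, which links the trans-Golgi network with endosomes, had 2090 and 2406 on the SOCS3 null arrays and 1899 and 1706 on the wildtype arrays (change 0.31, SE 0.12, adjusted p = 0.142). Its groups are apart without passing the test. Rab4a and Rab4b, Rabs of fast recycling, had changes of -0.33 (SE 0.20) and 0.32 (SE 0.08), Rab15 one of 0.71 (SE 0.20), and Rab21, Rab22a, Rab35, Rab17 and Rab11b changes of -0.11 to 0.18.

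Of the 3 late endosomal and lysosomal Rab genes tested 1 rose and 0 fell, where 13.1% and 9.55% of all genes tested did. Rab7, which directs fusion with lysosomes, had 2263 and 2372 on the SOCS3 null arrays, against 1652 and 1729 on the wildtype arrays, a change of 0.45 (SE 0.08, adjusted p = 0.034). That is a modest shift of a transcript that both genotypes hold well above background, and the groups do not overlap. Its second probe set had 1416 and 1296 on the SOCS3 null arrays and 1047 and 1218 on the wildtype arrays, a change of 0.26 that did not pass over all probe sets tested (adjusted p = 0.219), and the mean of the 2 did not pass either (0.35, adjusted p = 0.0551). Rab9, which returns mannose 6-phosphate receptors from late endosomes to the Golgi, had 934 and 1042 on the SOCS3 null arrays and 1150 and 1198 on the wildtype arrays (change -0.25, SE 0.10, adjusted p = 0.151). Rab7b lay below the median of all probe sets on all 4 arrays, with a change of -0.02.

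On the secretory route, 5 exocytic Rab genes passed and 0 of the ER and Golgi in limma, but the median change was 0.36 for the exocytic class and 0.41 for the ER and Golgi class, and the difference between the classes was not tested. Of 10 exocytic Rab genes tested 5 rose and 0 fell in limma, where 13.1% and 9.55% of all genes tested did. An unadjusted p under 0.05 was found for 5, and the changes of all 10 were positive. Over all genes tested, 4905 of 12732 had such a p and 48.9% had a positive change. Of the 10, Rab37 (change 0.04) passed the filter only through the SOCS3 null arrays. Rab27b changed by 0.01, and by -0.12 on a dimmer probe set tested only because of the wildtype arrays. The sign of Rab10 depends on the probe set. Rab8b had 471 and 307 on the SOCS3 null arrays, against 175 and 162 on the wildtype arrays, a change of 1.11 (SE 0.23, adjusted p = 0.044). Rab8a, its paralogue in traffic from the Golgi to the surface and the cilium, had 804 and 701 on the SOCS3 null arrays and 437 and 515 on the wildtype arrays, a change of 0.65 (SE 0.13, adjusted p = 0.0421). Both Rab8 transcripts thus rose, and the log2 ratio of Rab8b to Rab8a was -0.95 ± 0.28 in SOCS3 null cells and -1.41 ± 0.24 in wildtype cells (SD, n = 2 each), a difference of 0.46. Rab13, a relative of Rab8 that acts at tight junctions, had 124 and 129 on the SOCS3 null arrays and 58.0 and 59.2 on the wildtype arrays. The arrays of each genotype nearly coincide, and the change was 0.93 (SE 0.08, adjusted p = 0.00893). Rab27a, the Rab of secretory lysosomes and exosomes, had 321 and 309 on the SOCS3 null arrays, against 171 and 184 on the wildtype arrays, a change of 0.78 (SE 0.08, adjusted p = 0.0129). The 2 dimmer probe sets of Rab27a tested changed by 0.32 and 0.10 without passing, and as a mean of all 3 Rab27a did not pass (0.40, adjusted p = 0.0655).

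Rab10, the remaining exocytic Rab that passed, acts in basolateral and GLUT4 traffic, and its probe sets disagreed. The probe set that stands for it had 1119 and 1176 on the SOCS3 null arrays and 894 and 858 on the wildtype arrays, a change of 0.38 (SE 0.08, adjusted p = 0.0469). A second had 454 and 477 on the SOCS3 null arrays and 592 and 569 on the wildtype arrays, a change of -0.31 (SE 0.07) that did not pass among all probe sets (adjusted p = 0.0745). The last one changed by 0.03, and the mean of the 3 by 0.04 (adjusted p = 0.745). The direction of Rab10 therefore depends on the probe set read. The 5 exocytic members that did not pass were Rab3a, Rab3b and Rab3d, Rabs of regulated exocytosis, with changes of 0.16 (SE 0.15), 0.35 (SE 0.24) and 0.16 (SE 0.08), and the dim Rab27b and Rab37, with changes of 0.01 and 0.04.

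Of 10 ER and Golgi Rab genes tested 0 passed in limma, where 22.7% of all genes tested did. Among the 10, 3 had an unadjusted p under 0.05 and 8 had a positive change. Over all genes tested, 4905 of 12732 had such a p and 48.9% had a positive change. Rab1a, which works between ER and Golgi, had 7573 and 7366 on the SOCS3 null arrays and 7366 and 7486 on the wildtype arrays. The groups overlap, and the change was 0.01 (SE 0.08, adjusted p = 0.956). Rab2a, of the same route, had 1708 and 2005 on the SOCS3 null arrays and 1437 and 1452 on the wildtype arrays (change 0.35, SE 0.11, adjusted p = 0.103). Its groups are apart, and its 7 probe sets tested changed by -0.03 to 0.68, with 0 passing. Rab33b, a Golgi Rab that also binds the autophagy factor Atg16l1, had 117 and 158 on the SOCS3 null arrays and 82.9 and 72.4 on the wildtype arrays (change 0.71, SE 0.17, adjusted p = 0.0578). Rab6b, a Golgi Rab, had 32.9 and 47.2 on the SOCS3 null arrays and 26.9 and 18.1 on the wildtype arrays on the probe set that stands for it (change 0.54, SE 0.19, adjusted p = 0.132). Another of its probe sets, named after its values were seen, passed over all probe sets tested, with 25.1 and 37.9 on the SOCS3 null arrays, against 6.72 and 10.04 on the wildtype arrays (change 0.95, SE 0.17, adjusted p = 0.0458). That probe set lay below the filter in wildtype cells and was tested only because of the SOCS3 null arrays, so it had to differ. The others changed by -0.42 for Rab33a and -0.17 for Rab2b up to 0.51 for Rab43. Rab6a and Rab43 each had another tested probe set with a negative change, of -0.06 and -0.07.

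**Figure D2:**
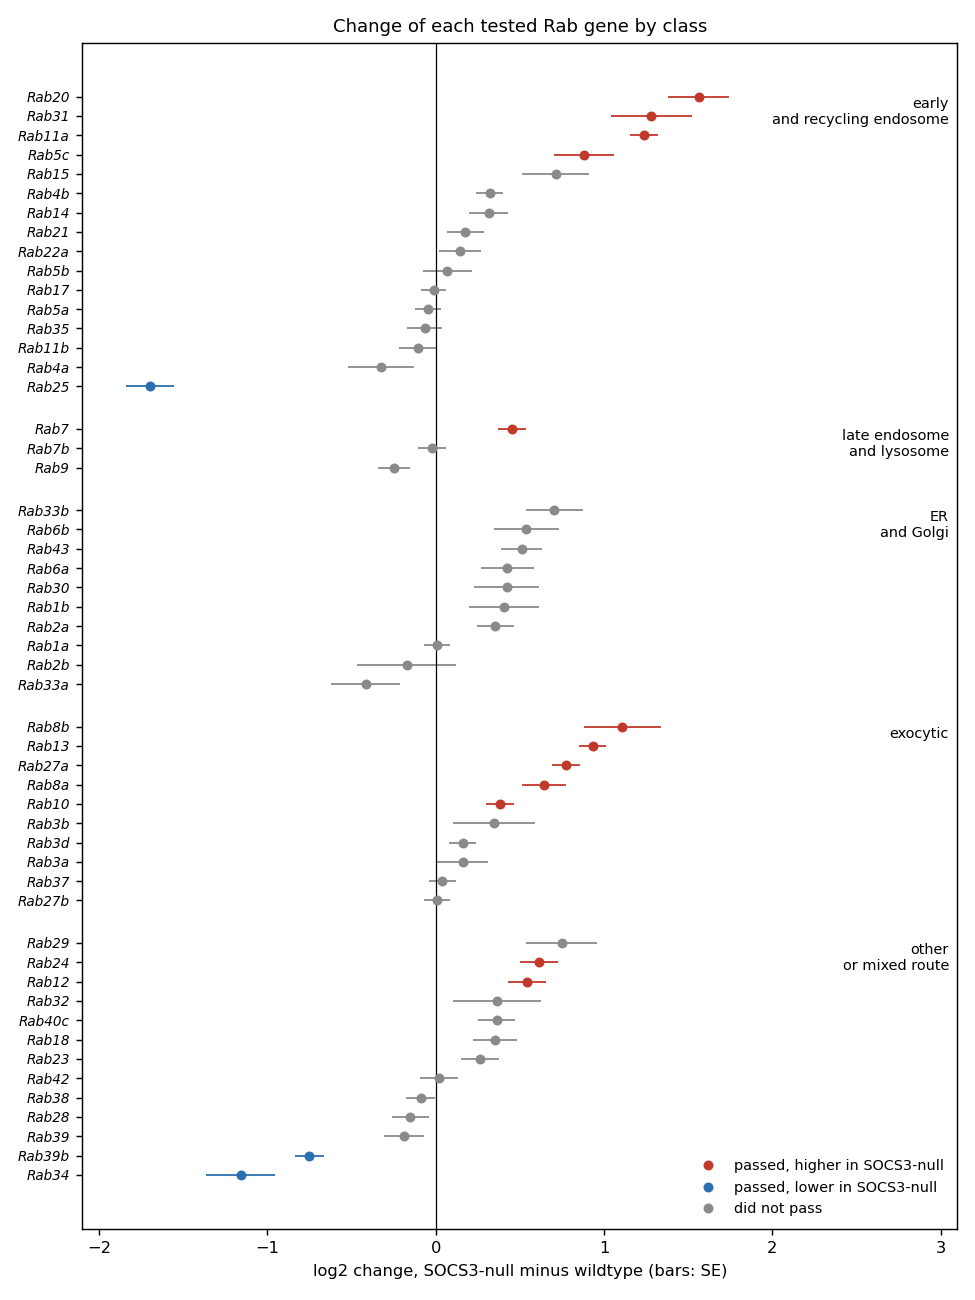
Change on the log2(intensity + 16) scale, SOCS3 null minus wildtype, of each of the 52 Rab genes tested, with bars for SE, ordered within 5 classes. Red points passed and were higher in SOCS3 null cells, blue points passed and were lower, and grey points did not pass; all 10 exocytic Rab genes lie at or above 0, while the early and recycling endosome class runs from -1.70 to 1.56.

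Set side by side, 5 of 19 endocytic Rab genes (early, recycling and late) rose and 1 fell. Of 20 secretory Rab genes (ER, Golgi and exocytic) 5 rose and 0 fell. The background over all genes tested was 13.1% that rose and 9.55% that fell. Each class had 8 genes at an unadjusted p under 0.05 in limma, where 4905 of all 12732 genes tested had one. Positive changes were 11 of 19 in the endocytic class and 18 of 20 in the secretory class, or 57.9% and 90.0%, against 48.9% of all genes tested. The 18 include Rab1a, Rab27b and Rab37, with changes of 0.01, 0.01 and 0.04, and Rab10, whose sign depends on the probe set. Rab2a, Rab6a and Rab43 also had other tested probe sets with negative changes, of -0.03, -0.06 and -0.07. So did Rab27b (-0.12), on a dim probe set tested only because of the wildtype arrays. On the log2(intensity + 16) scale the median endocytic level was 8.12 and 8.07 on the SOCS3 null arrays and 8.15 and 8.25 on the wildtype arrays. The median secretory level was 7.09 and 7.19 on the SOCS3 null arrays and 6.56 and 6.41 on the wildtype arrays. The median change per gene was 0.14 for the endocytic class, although its median level was lower in SOCS3 null cells, and 0.39 for the secretory class. Taking each SOCS3 null array against each wildtype array, the endocytic median ran from 0.003 to 0.28 and the secretory median from 0.23 to 0.51, and the endocytic median was the lower in all 4 pairings, with differences of -0.08 to -0.37. The pairings share arrays and are a description, not a test. The endocytic median was 0.07 without wildtype replicate 2 and 0.02 with each gene read as the mean of its probe sets. The 8 Rab genes taken to serve both routes were Rab8a, Rab8b, Rab10, Rab11a, Rab11b, Rab13, Rab14 and Rab25. Leaving them out gave a median of 0.14 over 15 endocytic genes and 0.35 over 16 secretory genes. Of the secretory genes that rose, Rab27a alone then remained. Of the endocytic genes that rose, Rab5c, Rab7, Rab20 and Rab31 remained.

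The remaining 13 members tested belong to other or mixed routes, and 2 rose and 2 fell, where 13.1% and 9.55% of all genes tested did. Rab24, linked to autophagosomes, had 531 and 626 on the SOCS3 null arrays, against 367 and 375 on the wildtype arrays, a change of 0.61 (SE 0.11, adjusted p = 0.0343). Its second probe set changed by 0.55 (adjusted p = 0.0644 over all probe sets tested), so both point the same way. Rab12, which carries transferrin receptor to lysosomes, had 225 and 267 on the SOCS3 null arrays and 161 and 165 on the wildtype arrays, a change of 0.54 (SE 0.11, adjusted p = 0.0437). A dimmer Rab12 probe set had 15.4 and 10.4 on the SOCS3 null arrays and 10.4 and 9.74 on the wildtype arrays. It changed by 0.14 without passing over all probe sets tested (adjusted p = 0.461). It lay below the filter in wildtype cells and was tested only because of the SOCS3 null arrays. The mean of the 2 probe sets, 0.34 (adjusted p = 0.0372), therefore adds no support of its own. Rab34, a Rab of macropinocytosis, lysosome positioning and ciliogenesis, was lower, with 151 and 109 on the SOCS3 null arrays, against 273 and 343 on the wildtype arrays. Its change was -1.16 (SE 0.20, adjusted p = 0.0318), and its second probe set passed too (-1.07, adjusted p = 0.0345 over all probe sets tested). Rab39b, a Rab known mainly from neurons, had 9.66 and 9.13 on the SOCS3 null arrays and 25.3 and 28.2 on the wildtype arrays, a change of -0.75 (SE 0.08, adjusted p = 0.0133). Its SOCS3 null level lay below the filter, so it was tested only because of the wildtype arrays and had to differ. A second Rab39b probe set changed by -0.32 without passing over all probe sets tested (adjusted p = 0.218). The change of Rab39b was -1.41 with a pseudocount of 1 and -0.31 with 64. Markers of neurons moved with it: 4 of 5 tested fell, and the sums over 6 markers were 1936 and 2094 on the SOCS3 null arrays and 4862 and 4680 on the wildtype arrays. Their part in the change of Rab39b was not tested. Rab18, a Rab of the ER and lipid droplets, had 2048 and 1709 on the SOCS3 null arrays and 1382 and 1544 on the wildtype arrays (change 0.35, SE 0.13, adjusted p = 0.142). The other 8 changed by -0.19 for Rab39 to 0.75 for Rab29 (SE 0.21, adjusted p = 0.0826), without passing.

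The calls rest on few arrays and, for several genes, on an adjusted p close to the threshold. Adjusted over all 27022 probe sets tested, 10 of the 15 probe sets that passed by gene still passed. Those of Rab5c, Rab8a, Rab8b, Rab10 and Rab12 did not (0.0517 to 0.0587). These 15 were picked by the same values, so the share of all probe sets is no background for them. Of all 107 probe sets of members tested 9 rose and 4 fell, where 15.9% of all probe sets tested passed. Of 31 members with several probe sets tested, 21 had all of 1 sign and 10 had both signs. Without the filter on dim probe sets 5 Rab genes rose and 2 fell, where 5.24% and 3.73% of all genes did. Dropping any single array moved some changes widely: Rab31 ran from 0.99 to 1.57, Rab8b from 0.81 to 1.41 and Rab5c from 0.65 to 1.11. Rab11a moved less, from 1.19 to 1.28.

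**Figure D3:**
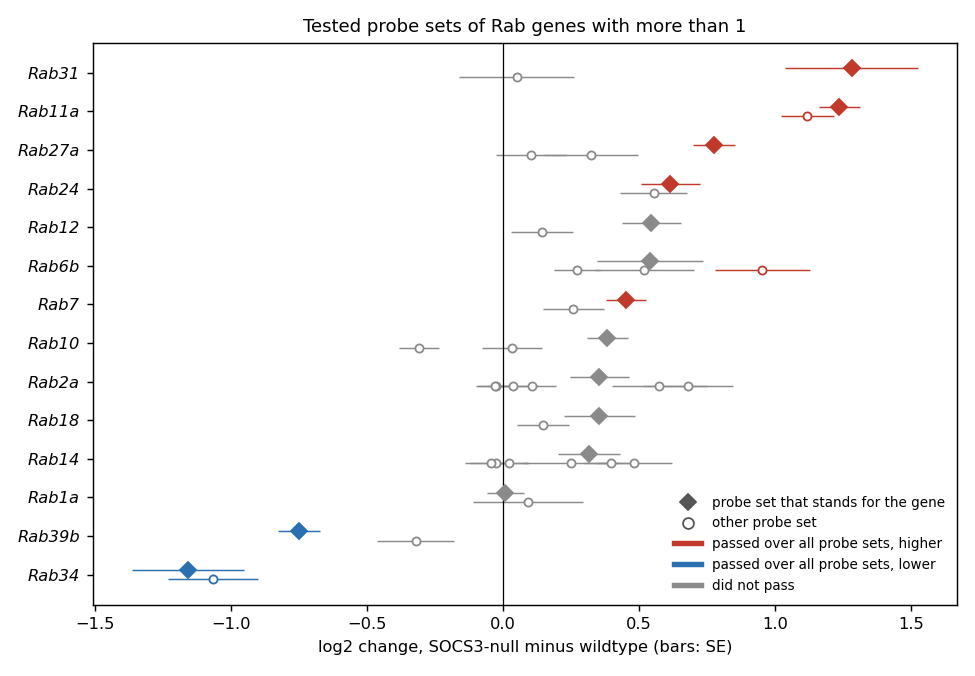
Change on the log2(intensity + 16) scale, SOCS3 null minus wildtype, with bars for SE, of each tested probe set of 14 Rab genes that have several. Diamonds stand for the gene and open circles are its other probe sets; colour marks those that passed over all probe sets. The probe sets of Rab11a and of Rab34 lie close together, while those of Rab10 fall on both sides of 0.

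The regulators of Rab proteins were read from the same fit. Over all genes tested 13.1% rose and 9.55% fell, 22.7% in all, which is the background for each list below. Of 43 exchange factors tested 8 rose and 2 fell, close to that share in sum, with a median change of 0.02. Their split by direction was not tested. Rin3 and Rin1, exchange factors of Rab5, rose by 2.00 (SE 0.09, adjusted p = 0.00459) and 0.93 (SE 0.08). Rin3 had 154 and 139 on the SOCS3 null arrays, against 24.8 and 24.3 on the wildtype arrays. Rin2, named after its values were seen, rose by 0.85 as well, so all 3 RIN genes were higher. Rab3il1, which activates Rab8, had 257 and 321 on the SOCS3 null arrays and 68.3 and 65.6 on the wildtype arrays, a change of 1.87 (SE 0.13, adjusted p = 0.00755). Dennd5a, whose product binds Rab6 and activates Rab39, rose by 0.89 (SE 0.11). Of 36 TBC-domain proteins 6 rose and 2 fell, with a median of 0.08. Tbc1d2b rose by 1.63, Grtp1 by 0.91 and Tbc1d20, which acts on Rab1, by 0.89, while Tbc1d15, which acts on Rab7, changed by -0.65 (SE 0.11, adjusted p = 0.0273). Of 8 genes for GDI, escort and prenylation only Chml, a Rab escort protein, passed, with 86.9 and 79.2 on the SOCS3 null arrays, against 155 and 123 on the wildtype arrays (change -0.64, adjusted p = 0.0477). Rabac1, Yipf5 and Rabif changed by 0.57, 0.48 and -0.28 without passing.

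Effectors were divided by route. Of 37 effectors of endocytic Rabs 9 rose and 2 fell, with a median of 0.22. Myo5b, the motor that Rab11a and Rab25 recruit, had 48.4 and 46.4 on the SOCS3 null arrays, against 15.6 and 18.8 on the wildtype arrays, a change of 0.94 (SE 0.09, adjusted p = 0.0107). Vps8 and Tgfbrap1, both subunits of the CORVET tether that binds Rab5, rose by 1.17 (SE 0.14) and 0.72 (SE 0.08). Osbpl1a, a Rab7 effector, changed by -0.71 (SE 0.09, adjusted p = 0.0159). Rab11fip5, an effector of Rab11 named after its values were seen, had 209 and 324 on the SOCS3 null arrays and 52.0 and 75.6 on the wildtype arrays, an increase of 1.81 (SE 0.27, adjusted p = 0.024). Of 29 effectors of secretory Rabs 5 rose and 3 fell, with a median of 0.27. The Golgi stacking protein Gorasp2 had 2100 and 2032 on the SOCS3 null arrays, against 975 and 1106 on the wildtype arrays, a change of 0.98 (SE 0.10, adjusted p = 0.0114). Micall2, which Rab13 recruits to junctions, rose by 1.2 (SE 0.14), and Uso1, the tether of Rab1, by 0.59 (SE 0.10). Mical1, which binds Rab1 and Rab8 proteins, changed by -1.34 (SE 0.23, adjusted p = 0.0301).

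Cargo receptors and adaptors of endoderm endocytosis moved most among these lists: of 17 tested 10 rose and 1 fell, with a median of 0.79. Cubn, the receptor cubilin, had 3228 and 3680 on the SOCS3 null arrays, against 16.5 and 8.28 on the wildtype arrays, a change of 6.95 (SE 0.18, adjusted p = 0.00357). Its partner Amn rose by 4.72, the adaptor Dab2 by 4.68 and Lrpap1, a chaperone of the megalin family, by 3.70. Cubn, Amn and Dab2 were also on the list of endoderm markers, so they are counted in the endoderm marker shift given above too. Tfrc, the transferrin receptor that recycles through Rab4 and Rab11 endosomes, was named after its values were seen and fell, with 2749 and 2821 on the SOCS3 null arrays, against 5792 and 5462 on the wildtype arrays (change -1.01, SE 0.08, adjusted p = 0.00867).

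**Figure D4:**
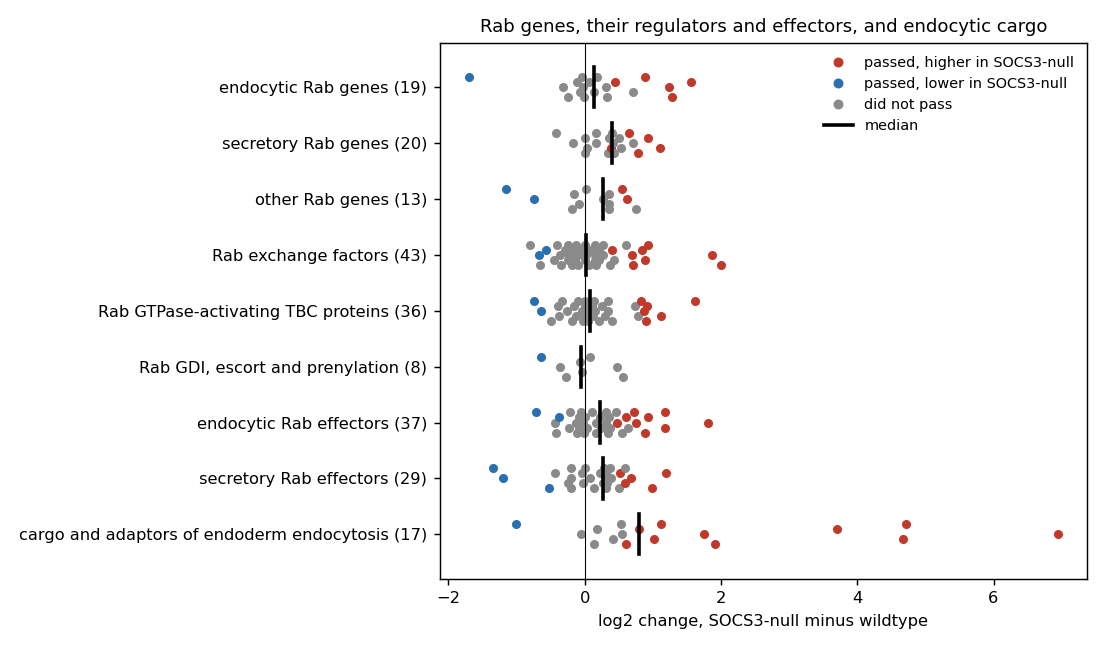
Change on the log2(intensity + 16) scale, SOCS3 null minus wildtype, of every gene tested in 3 groups of Rab genes, 5 lists of regulators and effectors and the list of endocytic cargo and adaptors, with the number tested in brackets and a black bar at the median. The medians run from -0.05 for GDI, escort and prenylation genes to 0.79 for cargo and adaptors, and the Rab genes span -1.70 to 1.56.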

How the data were processed

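RNA of 2 SOCS3 null and 2 wildtype ES cell samples was measured on 1-colour arrays of 45101 probe sets. The deposited values are linear intensity values per probe set; how the authors summarised and normalized them is not stated in the labels or files used here. Array medians were 15.7 to 16.0, so the values were taken as normalized between arrays, which removes any change in total RNA. Identical values on 2 or more arrays occur in 8945 probe sets, mostly dim ones (3738 of them tested), which narrows their spread.

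After 64 control probe sets were removed, log2(intensity + 16) was tested with limma 3.58.1 (R 4.3.3) with genotype as the only term, for 27022 probe sets with a mean at or above the 40th percentile. Of 45037 probe sets 34945 had 1 gene symbol, 932 several and 9160 none in the platform annotation; RefSeq (GRCm38.p6) gene IDs found 34741 of the named ones and all 59 members, and changed 0 symbols. The probe set with the highest mean stood for its gene; for 0 members would the linear mean have picked another.

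Members, routes, gene lists and motifs were chosen with earlier results of these data known. Named in the text are Socs3, each Rab gene that passed, in each class the 2 with the highest mean and the one with the largest change, those with disagreeing probe sets, and 4 genes of smallest p in each other list. Other Rab genes are named to account for all members, and the remaining genes were chosen after their values were seen. The fit was tested on simulated data. Alternatives were other pseudocounts, normalizations, filters, variance moderation, probe set rules, the replicate number as a block and leaving out each array. Figures were drawn with matplotlib 3.10.9. The number of arrays limits the precision.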

Additional observations from a re-analysis of the deposited data

How the results depend on the processing

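The counts of Rab genes that rose and fell, 12 and 3, stayed within 1.5 times in 9 of 11 alternatives that kept all arrays, at 9 to 14 and 2 to 3. In these 9, 11.5% to 18.9% of all genes rose and 8.84% to 14.3% fell. The 14 came with the filter at the 60th percentile, where 40 Rab genes were tested and 18.9% of all genes rose. Of the 12 that rose, 8 still did with a pseudocount of 64, and 8 with averaged probe sets. With no filter the counts were 5 and 2, with 1631 of 18193 genes called in all. With the replicate block they were also 5 and 2, with 1914 genes called. The deviations of same-numbered arrays correlated at -0.12 over genes and nothing in the labels pairs them. With crossed numbers, chosen after seeing the data, the block gave 14 and 3, with 2817 genes called. Without probe sets that hold equal values on several arrays, also chosen after seeing the data, the counts were 13 and 3. In that setting 3226 of 11699 genes were called. With 1 array left out, where the lone array is assumed to vary like the other genotype, both counts were 0, since limma called 0 of all genes and 2926 to 4731 genes had an unadjusted p under 0.05. The endocytic median of 0.14 was 0.0248 when probe sets were averaged per gene, and 0.0656 to 0.2018 with 1 array left out. The secretory median of 0.39 was 0.26 with a pseudocount of 64 and 0.23 when probe sets were averaged per gene. Rab1a, with a change of 0.01, ran from -0.0115 to 0.0284 with 1 array left out. Rab11a, Rab13 and Rab25 passed in all 11 alternatives with all arrays, and Rab12 and Rab10 in 5 and 6 of 11. Rab39b passed in each of the 10 in which it was tested, though in the main setting it passed the filter only through the wildtype arrays. The cause of these shifts was not tested. Dim genes are limited by background, and their changes by the pseudocount.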
